A study of Mus musculus with 16 samples.

Results

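The 12 arrays described here compare the colon of 6 mice given 5-aminosalicylic acid (5-ASA) after dextran sulphate sodium (DSS) with that of 6 saline mice, called Control, given DSS alone. They were chosen by the sample titles and are 12 of the 16 arrays of the series. The other 4 are Sham mice, which drank water and had no DSS. Every mouse was ApcMin/+, a strain with 1 inactivated copy of the tumour suppressor Apc that forms intestinal adenomas. DSS was given at 1.5% (w/v) for 3 days, the colon was taken at day 28, and tissue without a visible tumour was used, with 1 array per mouse. On dosing the labels differ. Their protocol has 5-ASA or saline placed in the colorectum for 28 days, and their descriptions have 5-ASA in the drinking water, with plain water for Control, over the 25 days after DSS. Age and sex are not given in the sources used here.

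5-ASA is an anti-inflammatory drug for ulcerative colitis that acts on the colonic lining. It is known to activate the nuclear receptor PPAR gamma in colonocytes, to inhibit prostaglandin synthesis and to scavenge the oxidants that phagocytes release. DSS strips and injures the epithelium, neutrophils and monocytes then enter, and repair follows with crypt cell division and new matrix. The series title raises the drug's relation to neutrophil activation and tumour burden, and the comparison here covers the tissue around the tumours.

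Values are log2 of the array intensity relative to that array's 75th percentile, so a difference of 1 is a doubling and a value below 0 lies under that percentile. After dim probes were left out, 23360 genes were tested. Spots well above background made up 59.8% to 65.2% of each array in the first row of arrays on the slides and 53% to 57.7% in the second. All 5-ASA mice and Control 3 and 6 lay in the second row, and Control 1, 2, 4 and 5 lay in the first. Array row and treatment therefore largely coincide, and the spread within Control, unlike that within 5-ASA, spans both rows. The 2 slides each held 3 Control and 3 5-ASA mice, replicates 1 to 3 on slide 1 and replicates 4 to 6 on slide 2. The colonic origin showed in the summed signal of absorptive colonocyte markers, at 10.03 to 10.24 in Control and 9.87 to 10.22 in 5-ASA (log2), and of goblet cell markers, at 10.70 to 10.98 and 10.67 to 10.97. Smooth muscle markers summed to 8.42 to 10.20 in Control and 9.48 to 9.94 in 5-ASA, so the pieces held muscle wall as well as mucosa. In such whole tissue, fewer cells of a type and less RNA per cell cannot be told apart.

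In the mean, no single gene passed the test between 5-ASA and Control. With limma over all 23360 genes, 0 genes had an adjusted p under 0.05, and the smallest adjusted p was 0.354. At an unadjusted p under 0.05 there were 948 genes (4.06%), of which 321 (1.37%) were higher and 627 (2.68%) lower in 5-ASA. The median difference over all genes was -0.000636, 49.8% of genes lay above 0 and 50.2% below, and the median standard error of a difference was 0.14. In 5 genes (0.0214%) the 6 5-ASA mice lay wholly above the 6 Control mice, and in 25 genes (0.107%) wholly below them. Among 23360 genes some separate in this way by chance, and these counts were not tested against the number expected. Lack of overlap in a gene named below therefore describes its values and does not set the gene apart from chance. The 321 became 693 without Control 1 and 497 without Control 5, and 164 without Control 3 and 184 without Control 4. The 627 became 394 without Control 3. The balance turned with normexp background correction (755 higher and 417 lower), on slide 2 alone (793 and 472) and in the second array row alone (844 and 679). The genes below are therefore given as levels and differences with the standard error, and their adjusted p in limma was 0.999 unless another is given. Those given here with a mean difference had an unadjusted p under 0.05, except Nat2, Tagln, S100a8, S100a9, Mpo, Lcn2, Il1b, Tnf, Ptgs2 and Apc. In the lists, p under 0.05 means the unadjusted p.

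The smallest p belonged to Ppbp, which encodes the platelet chemokine precursor of CXCL7, an attractant for neutrophils. It ranged from -5.04 to -2.67 with a median of -3.99 in Control, and from -6.74 to -5.50 with a median of -6.24 in 5-ASA. No 5-ASA mouse reached the lowest Control mouse, and Sham lay between -6.90 and -5.87, with the 5-ASA mice. The difference was -2.10 ± 0.34 (SE, n = 6 and 6; limma adjusted p = 0.354). Its probe, at chr5:91198970-91199029 of mm9, was well above background on 5 of 6 Control arrays and on 0 of 6 5-ASA arrays. Set against the background bound of the 5-ASA arrays, Ppbp was at least 1.53-fold higher in Control. Treml1, a receptor of platelet granules, had a Control range of -4.07 to -2.87 (median -3.91) and a 5-ASA range of -4.56 to -3.92 (median -4.50). The groups overlapped through 5-ASA 4 alone, which stood at -3.92 while the other 5 5-ASA mice were between -4.56 and -4.48. The difference was -0.70 ± 0.18, and -0.37 with the array row as a covariate. Over the platelet list, 7 of 7 measured genes were lower in 5-ASA, with a median of -0.30, and Ppbp and Treml1 were the 2 with p under 0.05.

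Red cell genes were lower in 5-ASA too. Of 6 measured genes of the erythroid list all 6 were lower, 5 of them at p under 0.05 against 2.68% of all genes, with a median of -1.60. Alas2, the first enzyme of haem synthesis in red cell precursors, ranged from -1.01 to 2.68 (median -0.71) in Control and from -2.99 to -0.87 (median -1.98) in 5-ASA. Control 1, at 2.68, and Control 5, at 0.90, stood above all other mice, and the remaining Control mice, at -1.01 to -0.46, overlapped the highest 5-ASA mouse. Its difference was -1.96 ± 0.59. Slc4a1, the anion exchanger of the red cell membrane, spanned -3.66 to 0.16 in Control (median -2.46) and -4.90 to -3.26 in 5-ASA (median -4.17), a difference of -1.96 ± 0.51. Hba-a1, an alpha globin gene whose probe may also read its near-identical copy, was at 4.26 to 7.68 (median 4.84) and 3.40 to 4.71 (median 4.01), with -1.42 ± 0.49. Control 1 was the highest mouse in Ppbp, Treml1, Alas2, Slc4a1 and Hba-a1 alike. The list median was -1.13 without Control 1. It was -2.11 on slide 1, -1.02 on slide 2 and -0.78 with the array row as a covariate.

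Tfrc, the transferrin receptor that brings iron into dividing cells and red cell precursors, ranged from 3.53 to 4.57 (median 4.2) in Control and from 1.52 to 4.18 (median 3.17) in 5-ASA. The low values belonged to 5-ASA 3 and 5-ASA 6, at 1.52 and 2.29, while 5-ASA 1, at 4.18, lay among the Control mice. Its difference was -1.08 ± 0.39, and it was -1.16 and -1.0 on the 2 slides.

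**Figure D1:**
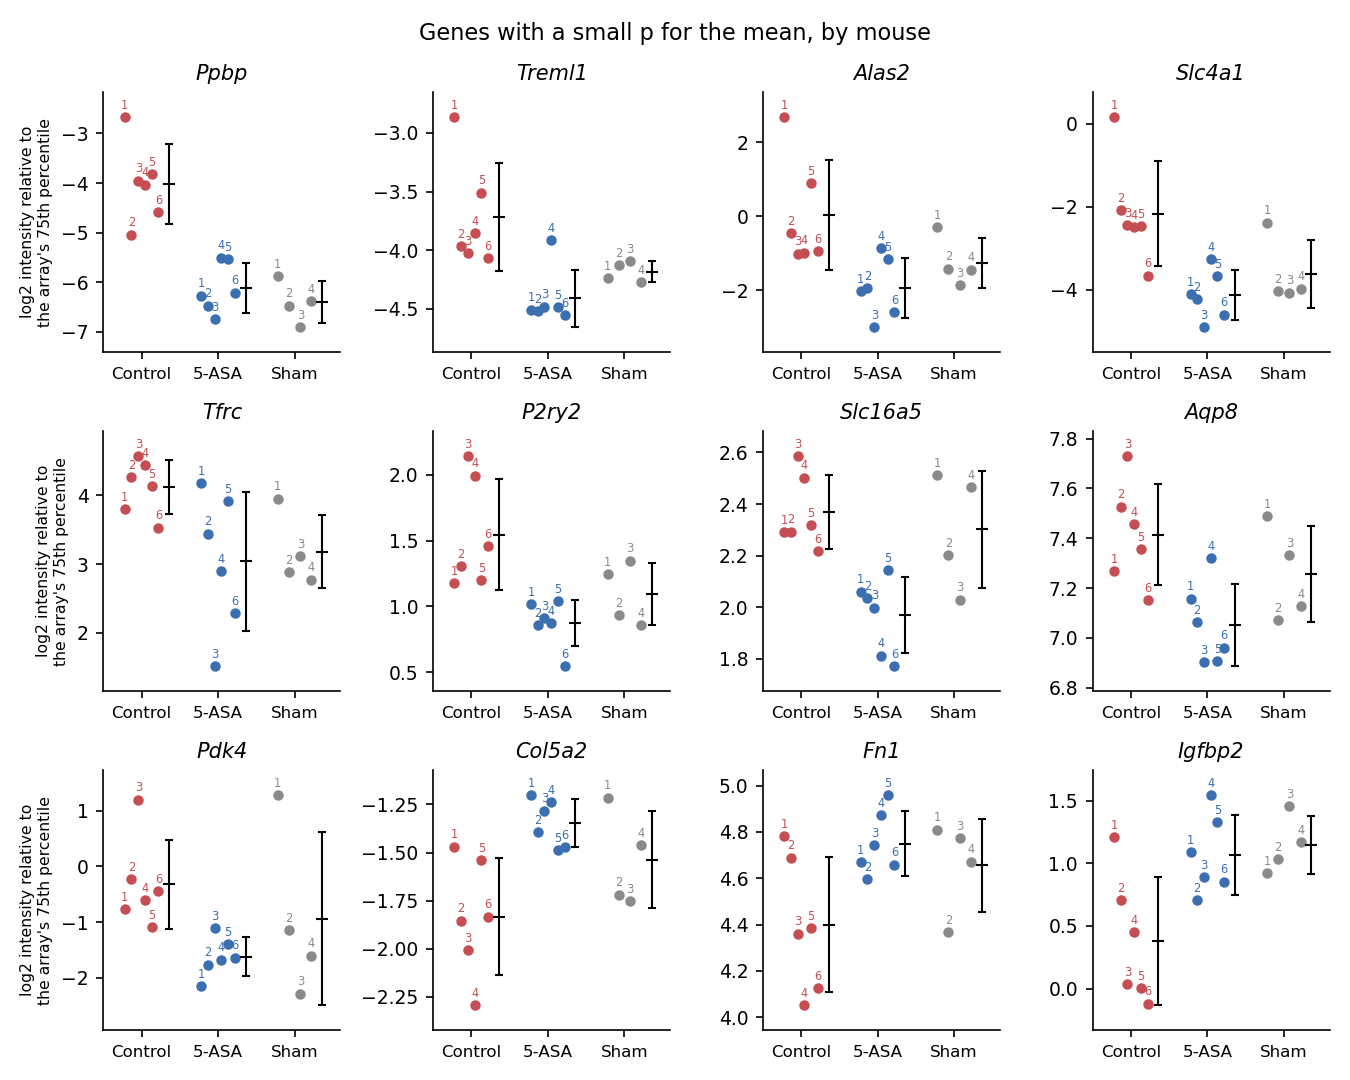
Log2 intensity relative to the array's 75th percentile (vertical axis) in each Control, 5-ASA and Sham mouse for 12 genes with a small unadjusted p in the mean. Points carry the replicate number, and the black bar is the mean with the SD. In Ppbp, P2ry2, Slc16a5 and Pdk4 every 5-ASA mouse lies below every Control mouse, and in the others the groups overlap.

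Among epithelial genes, those of the differentiated surface were slightly lower in 5-ASA. P2ry2, the receptor through which extracellular nucleotides drive chloride and mucus secretion, ranged from 1.18 to 2.14 (median 1.38) in Control and from 0.55 to 1.04 (median 0.89) in 5-ASA. The groups did not overlap, and the difference was -0.67 ± 0.17. Slc16a5, a monocarboxylate transporter, was at 2.22 to 2.59 (median 2.31) and 1.77 to 2.14 (median 2.02), again without overlap, with -0.40 ± 0.10. Its relative Slc16a1, the main butyrate transporter of colonocytes, differed by -0.23 ± 0.11, with overlapping groups. Aqp8, the water channel of surface colonocytes, was at 7.15 to 7.73 (median 7.41) in Control and 6.90 to 7.32 (median 7.01) in 5-ASA. Here 4 of 6 5-ASA mice lay below all Control mice, 5-ASA 4 at 7.32 was the highest, and the difference was -0.36 ± 0.11. Klf4, a transcription factor of differentiated epithelium, was at 5.45 to 6.08 (median 5.69) against 4.99 to 5.61 (median 5.44), a difference of -0.34 ± 0.12. The absorptive colonocyte list had 16 of 20 genes lower with a median of -0.14, against -0.000636 over all genes, and Aqp8 and Slc16a1 were the 2 with p under 0.05. Klf4 belongs to the goblet cell list and was its 1 gene with p under 0.05. That list was even, with 7 of 13 genes higher and a median of 0.02, which turned to -0.01 with quantile scaling.

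Fuel-use genes controlled by PPAR receptors were not higher in the mice given the drug. Of 20 PPAR target genes 16 were lower in 5-ASA, with a median of -0.09, 3 of them at p under 0.05 against 2.68% of all genes, and none higher at that threshold. Pdk4, the kinase that diverts pyruvate away from mitochondrial oxidation, ranged from -1.09 to 1.20 (median -0.53) in Control and from -2.15 to -1.11 (median -1.66) in 5-ASA. The groups just missed each other, Control 3 at 1.20 stood above the rest, and the difference was -1.30 ± 0.50. Pparg itself, the receptor 5-ASA binds, was at 3.33 to 3.93 (median 3.44) and 2.96 to 3.50 (median 3.10), with -0.35 ± 0.17. Acsl1, which activates fatty acids for oxidation, differed by -0.28 ± 0.13. Sham mice spanned both groups for Pparg, at 2.78 to 3.84. Genes that carry or acetylate 5-ASA had a similarly small median difference. Of 11 such genes 8 were lower with a median of -0.08. Slc16a1, which is also in the absorptive colonocyte list, was the 1 with p under 0.05. Nat2, the mouse enzyme that acetylates the drug in the mucosa, was at 1.13 to 1.46 in Control and 1.01 to 1.50 in 5-ASA, a difference of -0.08 ± 0.10.

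Gdap10 and Sertad1, a coregulator of E2F transcription, were also among the genes without overlap, with differences of -0.42 ± 0.10 and -0.40 ± 0.10. Cdkn1a, the p21 inhibitor of cyclin-dependent kinases, had Control values of 2.82 to 3.80 (median 3.20) and 5-ASA values of 2.61 to 3.11 (median 2.74), with -0.43 ± 0.16. It was 1 of 11 measured p53 targets, of which 6 were higher and 5 lower. Gsta4, a glutathione transferase that clears products of lipid peroxidation, was at 0.03 to 1.09 (median 0.61) and -0.24 to 0.33 (median -0.06), a difference of -0.59 ± 0.19. On slide 1 that difference was -0.96, and on slide 2 it was -0.21. Of 16 NRF2 and aryl hydrocarbon receptor targets 14 were lower, with a median of -0.06, and Gsta4 was the 1 with p under 0.05.

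In the other direction, the matrix genes of fibroblasts were higher in 5-ASA. Of 21 genes 20 were higher with a median of 0.25, and 5 had p under 0.05, against 1.37% of all genes. Col5a2, a chain of fibril-forming type V collagen, ranged from -2.29 to -1.47 (median -1.84) in Control and from -1.49 to -1.20 (median -1.34) in 5-ASA. Only Control 1, at -1.47, reached into the 5-ASA range, and the difference was 0.49 ± 0.13. Fn1, fibronectin, was at 4.05 to 4.78 (median 4.37) and 4.6 to 4.96 (median 4.71), with 0.35 ± 0.13, 0.06 on slide 1 and 0.64 on slide 2. Col1a1, the main collagen chain of scar and submucosa, was at 2.42 to 3.82 in Control and 3.77 to 3.99 in 5-ASA. Control 3 and Control 4, at 2.42 and 2.91, were the low mice, and the difference was 0.48 ± 0.20. Sham mice, at 3.67 to 3.87, lay with the 5-ASA mice and the upper 4 Control mice. Igfbp2, a binding protein for insulin-like growth factors, was at -0.12 to 1.21 (median 0.24) against 0.71 to 1.54 (median 0.99), a difference of 0.69 ± 0.21. The list median stayed above 0 on slide 1 (0.15), on slide 2 (0.38), with the array row as a covariate (0.48) and without Control 4 and 6 (0.19).

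Muscle and nerve genes were likewise higher in the mean, but their direction rested on 2 Control mice. All 17 smooth muscle genes were higher in 5-ASA with a median of 0.39, and all 17 enteric neuron and glia genes with 0.33, with no gene of either list at p under 0.05. Without Control 4 and Control 6 the medians were -0.03 and -0.14, and on slide 1 they were -0.14 and -0.25, against 0.96 and 0.97 on slide 2. Tagln, a contractile protein of smooth muscle, shows the form of it. Its Control values ran from 6.15 to 7.66 with a median of 7.05, and its 5-ASA values from 7.12 to 7.48 with a median of 7.19. Control 6 and Control 4, at 6.15 and 6.26, lay well under all other mice and Control 1, at 7.66, above them, and the difference was 0.37 ± 0.22.

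Neutrophil activation is a subject of the series title, and the mean of neutrophil genes turned on a few mice. Of 20 neutrophil granule and receptor genes 13 were lower in 5-ASA with a median of -0.25, and Fpr1 was the 1 with p under 0.05. The median was -0.01 without Control 4 and 6. S100a8 and S100a9, which together form calprotectin, the abundant neutrophil cytosolic protein used as a stool marker of colitis, had the widest ranges. S100a9 ran from -3.24 to 1.99 (median -1.43) in Control and from -3.54 to -1.27 (median -2.07) in 5-ASA. Control 4 and Control 6 were at 1.99 and 1.37, and the other Control mice, at -3.24 to -0.88, overlapped the 5-ASA mice. The difference of -1.28 ± 0.91 was 0.06 without those 2 mice. For S100a8 it was -1.30 ± 0.96 and -0.14. Fpr1, the receptor for bacterial formyl peptides, was at -3.86 to -1.52 (median -3.12) and -4.24 to -3.15 (median -3.92), with -0.80 ± 0.32. Mpo, the granule enzyme myeloperoxidase, pointed the other way at 0.55 ± 0.28 and lay near background, well above it on 4 of 6 arrays of both groups. Lcn2, an iron-binding defence protein of neutrophils and inflamed epithelium, was at -1.14 to 0.88 (median -0.15) against -1.35 to 0.14 (median -1.02), a difference of -0.62 ± 0.33.

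As a list, attractant genes were highest in the same Control mice, with scores of 1.70 in Control 4 and 1.29 in Control 6. Of 9 measured neutrophil-recruiting cytokines 8 were lower in 5-ASA with a median of -0.42, which turned to 0.06 without Control 4 and 6. The 1 with p under 0.05 was Ppbp, which is also in the platelet list and was instead highest in Control 1. Il1b differed by -0.44 ± 0.60 and by 0.44 without Control 4 and 6. Tnf differed by -0.83 ± 0.55. The phagocyte NADPH oxidase, the enzyme of the oxidative burst, had 6 of 6 genes lower with a median of -0.53, none at p under 0.05, and -0.04 without Control 4 and 6. Its mean list score was 0.34 in Sham (range -0.88 to 0.91), 0.11 in Control and -0.34 in 5-ASA, so the mean of Sham lay above both. Of 18 monocyte and macrophage genes 15 were lower with a median of -0.17, 2 of them lower and 1 higher at p under 0.05. Clec4d, a C-type lectin of myeloid cells, was at -4.00 to -0.98 (median -2.89) in Control and -4.58 to -3.14 (median -4.04) in 5-ASA, with -1.19 ± 0.50, and -0.57 without Control 4 and 6. Plaur, the urokinase receptor, was at -0.31 to 1.57 (median 0.32) and -1.05 to 0.52 (median -0.41), with -0.87 ± 0.37. Cd209a, a lectin of monocyte-derived dendritic cells, was instead higher in 5-ASA, at -2.54 to -1.60 (median -1.96) against -3.78 to -1.92 (median -2.44), a difference of 0.66 ± 0.28, and 0.45 without those mice.

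All 16 B cell markers were lower in 5-ASA, with a median of -1.03 and none at p under 0.05. The list median was -0.34 without Control 4 and 6. Of 12 eicosanoid genes 9 were higher in 5-ASA with a median of 0.05, and none had p under 0.05. Ptgs2, the inducible cyclooxygenase that 5-ASA is held to inhibit, was at -2.49 to -0.92 (median -1.79) in Control and -2.42 to -0.78 (median -2.10) in 5-ASA, a difference of -0.10 ± 0.30 that was 0.17 with the array row as a covariate. Apc, the gene mutated in every mouse, was at -2.53 to -2.07 and -2.53 to -2.26, a difference of -0.04 ± 0.10. Its direction changed with the array row as a covariate (0.05), and its probe does not report the mutation.

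The groups were also compared in how much their mice varied among themselves, and which group was wider differed between gene lists. Over all genes the spread was alike, with a median SD between mice of 0.24 in Control, 0.23 in 5-ASA and 0.21 in Sham, and the SD was larger in Control for 49% of genes and in 5-ASA for 51%. The SD was at least 2 times as large in Control for 12.9% of genes and in 5-ASA for 11.5%. The balance differed with signal level. In the 5840 brightest genes the SD was larger in Control for 40%, with a median SD of 0.139 in Control and 0.159 in 5-ASA. In the dimmer sets of 5840 genes it was larger in Control for 50.2% to 53.9%. The lists below are set against all genes and not against genes of like level. In a limma fit to each mouse's absolute deviation from its group mean, 2932 genes (12.6%) had p under 0.05, of which 1537 (6.58%) were wider in Control and 1395 (5.97%) wider in 5-ASA. Among the 5840 brightest genes the shares were 3.39% wider in Control and 5.99% wider in 5-ASA. On simulated data this fit gave p under 0.05 to more unchanged genes than the nominal share. These shares, and the list counts below, therefore cannot be read against the nominal share. With deviations from the group median those counts were 664 and 802, and without Control 4 the genes wider in Control were 628. Only 3 (0.0128%) had an adjusted p under 0.05, all wider in 5-ASA. They are intergenic transcript intervals of the array design at chr2:176583825-176714400, chr14:43418592-43428090 and chrX:58387887-58429166 of mm9, with adjusted p of 3.87e-05, 0.0211 and 0.0284, and were singled out after their values were seen. All 3 lay near background, well above it on 3, 3 and 1 of 6 5-ASA arrays, and 0 genes passed when probes had to be well above background on all 16 arrays. The count of 3 became 24 without 5-ASA 6, 20 without Control 2, 11 without Control 1 and 10 without Control 6, and was 2 to 8 without each other mouse. No gene with a symbol passed the adjusted threshold.

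**Figure D2:**
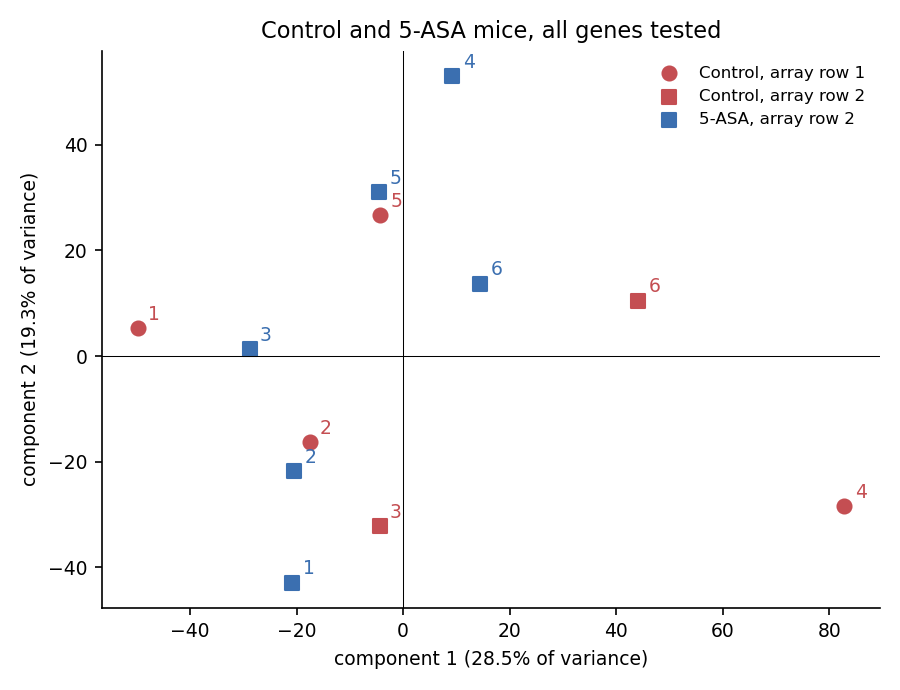
Scores of the 12 mice on principal components 1 and 2 of all genes without a missing value, with the replicate number beside each point and the array row as the symbol. Control mice run from -49.8 to 82.9 along component 1, and the 5-ASA mice from -28.8 to 14.5.

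In a principal component analysis of the 12 mice, the group with the wider range differed between the first 2 components. Component 1, with 28.5% of the variance, placed Control 4 at 82.9, Control 6 at 44.2 and Control 1 at -49.8, with all 6 5-ASA mice between -28.8 and 14.5. Component 2, with 19.3%, placed 5-ASA 4 at 53 and 5-ASA 1 at -42.9, with Control between -32.1 and 26.6. Control 4 was the mouse farthest from its group mean in 741 of the 1537 genes that were wider in Control (48.2%), against 36.2% of all genes. In the 1395 genes wider in 5-ASA it was 5-ASA 1 in 33.9% and 5-ASA 4 in 26.9%, against 26.5% and 24.6% of all genes. As a summary over genes, the median distance of a mouse from the other mice of its group was 0.197 ± 0.047 (SD, n = 6) in Control and 0.193 ± 0.035 (n = 6) in 5-ASA (exact two-sided permutation test, p = 0.851).

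**Figure D3:**
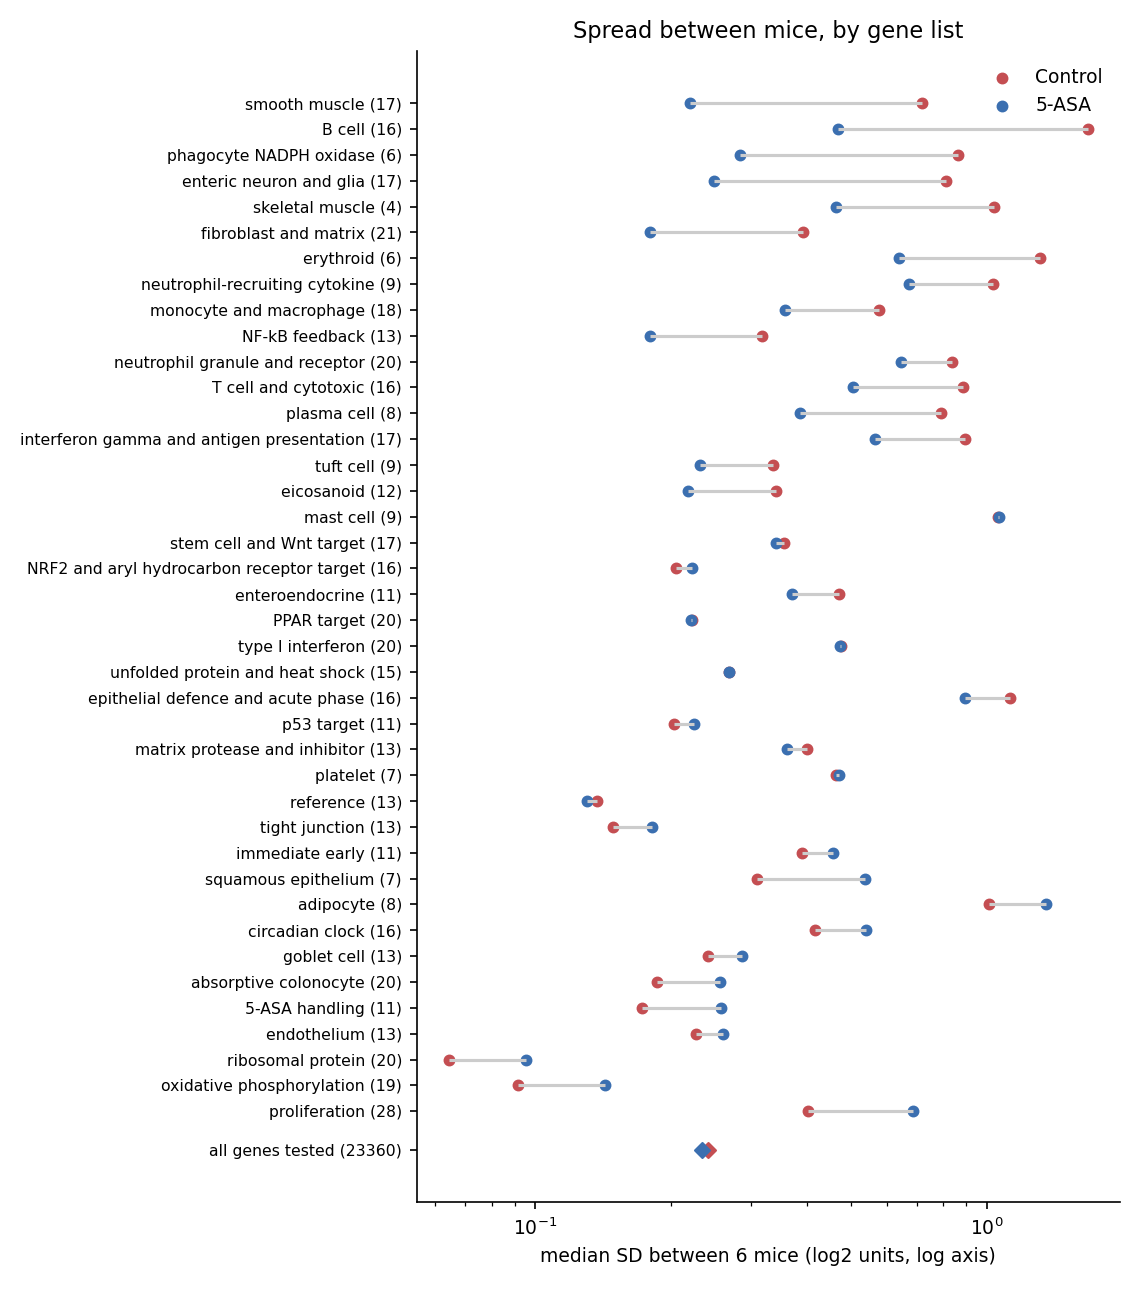
Median SD between the 6 mice of a group over the measured members of each gene list (horizontal log axis, log2 units), for Control and 5-ASA, with the number of members in brackets. Lists are ordered by the median ratio of Control SD to 5-ASA SD, and the diamonds give all 23360 genes. Smooth muscle, at 0.72 and 0.22, stands at one end and proliferation, at 0.40 and 0.69, at the other.

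Smooth muscle varied most in Control relative to 5-ASA. In 17 of 17 genes the SD was larger in Control, with a median SD of 0.72 against 0.22 in 5-ASA and 0.57 in Sham, and 10 had p under 0.05 for spread against 6.58% of all genes. Myl9, a regulatory light chain of smooth muscle myosin, ranged from 6.26 to 7.79 (median 7.27) in Control and from 7.23 to 7.59 (median 7.37) in 5-ASA. Control 6 and Control 4 were at 6.26 and 6.48 and Control 1 at 7.79, with all 6 5-ASA mice between them. The SD was 0.58 and 0.14, and the mean absolute deviation was smaller in 5-ASA by -0.39 ± 0.12 (adjusted p = 0.251). For Tagln the SD was 0.57 and 0.15 (adjusted p = 0.27). Without Control 4 and 6 the SD was still larger in Control in 17 of 17 genes, with a median ratio of 1.82 in place of 3.41, and 0 had p under 0.05. Without Control 4 or Control 6 alone 0 had p under 0.05 as well, and without Control 5 there were 16. On each slide by itself it was larger in Control in 17 of 17, with median ratios of 3.00 and 2.69.

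Enteric neuron and glia genes had the same low mice. The SD was larger in Control in 16 of 17, with a median of 0.81 against 0.25 in 5-ASA and 0.58 in Sham, and 11 had p under 0.05. Gap43, a growth cone protein of neurons, had an SD of 1.00 and 0.15 (adjusted p = 0.249). Without Control 4 alone 0 genes of the list had p under 0.05, and without Control 6 alone 2. Over the list the median ratio was 1.20 without Control 4 and 6, 1.13 on slide 1 and 6.43 on slide 2. In Sham, Sham 1 was the highest mouse for both muscle and nerve lists and Sham 3 the lowest, so untreated mice varied in these genes too.

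Matrix genes differed from muscle and nerve in which mice were low. The SD was larger in Control in 18 of 21 fibroblast and matrix genes, with a median of 0.39 against 0.18 in 5-ASA and 0.18 in Sham, and 8 were wider in Control and 1 in 5-ASA at p under 0.05. Lum, the collagen-binding proteoglycan lumican, ran from 1.55 to 3.14 (median 2.17) in Control and from 2.49 to 2.92 (median 2.74) in 5-ASA. The low Control mice were Control 4, 6 and 3, at 1.55, 1.75 and 1.80, and the 5-ASA values lay inside the Control range. Its SD was 0.63 and 0.15, with a spread difference of -0.46 ± 0.10 (adjusted p = 0.183). Col1a1 had an SD of 0.58 and 0.09 (adjusted p = 0.183), and its low mice were Control 3 and 4, while Control 6 was at 3.74 among the others. Without Control 4 and 6 the median ratio of the list was 1.98, and 2.10 with them. Without Control 3 the genes wider in Control at p under 0.05 were 5.

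**Figure D4:**
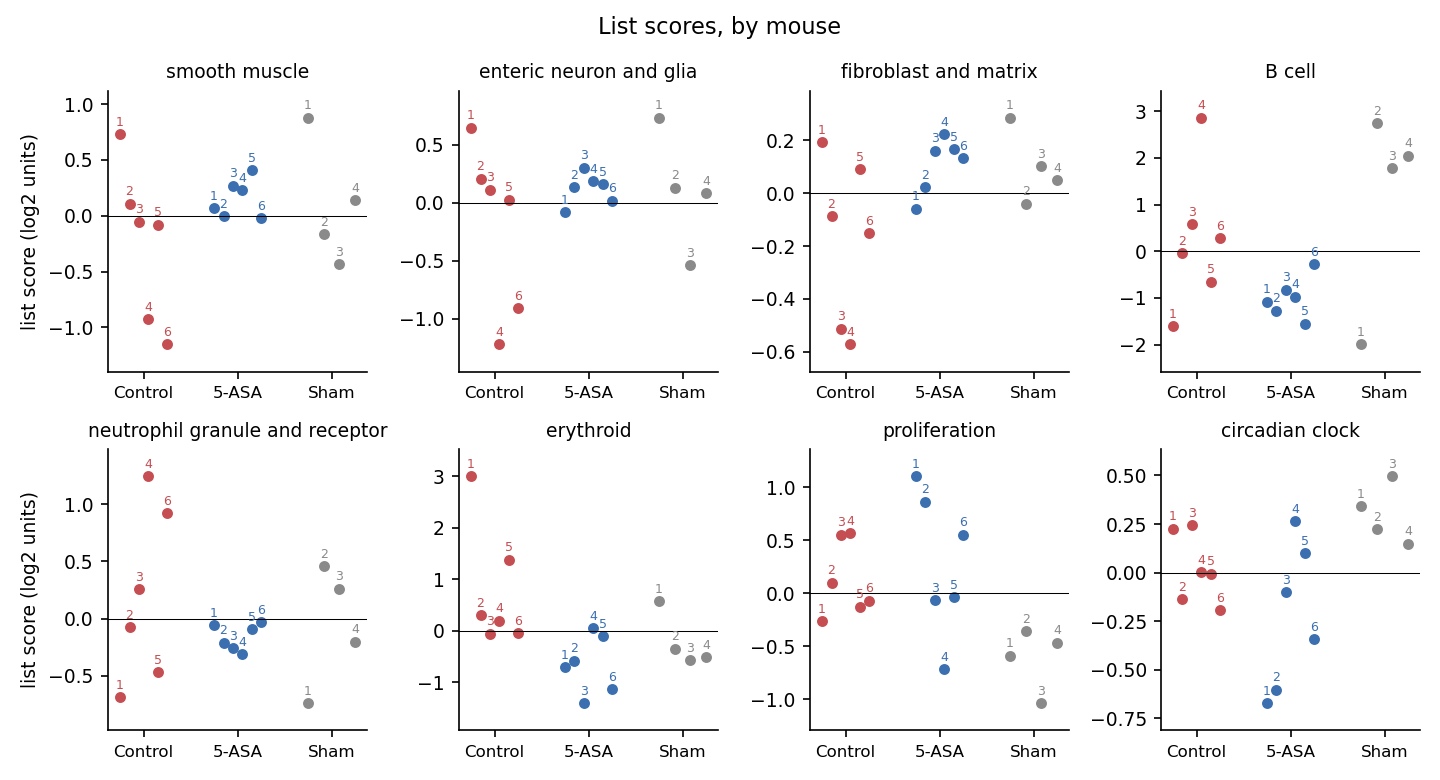
List score of each mouse (vertical axis), the mean over the members of a list of the log2 value minus that gene's mean over all 16 arrays. In smooth muscle and in enteric neuron and glia genes Control 4 and 6 are the lowest mice, in neutrophil genes they are the highest, and in proliferation genes 5-ASA 1 and 2 are the highest, with 5-ASA 4 the lowest of the 12 mice given DSS and Sham 3 lower still.

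The list score of a mouse, the mean of its members' log2 values after each gene's mean over the 16 arrays is subtracted, shows how these groups of genes lined up within mice. Control 4 and Control 6 scored -0.92 and -1.15 in smooth muscle and -1.22 and -0.91 in neuron and glia genes, and 1.25 and 0.93 in neutrophil genes. Control 1 scored 0.73, 0.65 and -0.69. The 5-ASA mice kept to -0.02 to 0.41, -0.08 to 0.30 and -0.31 to -0.03. Within Control, the mice lowest in muscle and nerve genes were thus those highest in neutrophil genes, and Control 2, 3 and 5 lay between them and Control 1. A like order was seen in Sham, without DSS. Sham 1 was highest in muscle and nerve genes and lowest in neutrophil genes, at 0.88, 0.73 and -0.74. Sham 3 was lowest in muscle and nerve genes, at -0.43 and -0.54, and at 0.26 in neutrophil genes, where Sham 2 was highest at 0.46.

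Among inflammatory genes, neutrophil genes had the larger SD in Control in 15 of 20, with a median of 0.84 against 0.65 in 5-ASA, and 5 were wider in Control at p under 0.05, a count that was 1 to 3 without Control 1, 4 or 6 or any 1 of the 5-ASA mice. S100a9 had an SD of 2.26 and 0.86 (adjusted p = 0.337), and S100a8 of 2.47 and 1.01 (adjusted p = 0.339). Cxcl1, a main neutrophil attractant, was at -5.30 to -1.76 (median -3.65) in Control and -5.17 to -3.27 (median -4.54) in 5-ASA. Control 4, 6 and 3, at -1.76, -1.90 and -2.65, were above every 5-ASA mouse, and Control 1, 2 and 5, at -5.30 to -4.64, were among the lowest. The spread difference was -0.92 ± 0.22 (adjusted p = 0.193). Fpr2, a receptor for formyl peptides and serum amyloid A, followed with an SD of 1.64 and 0.72 (adjusted p = 0.334). Both had probes well above background on all 6 Control arrays but on 3 and 2 of the 5-ASA arrays. Fewer spots passed that flag in the second array row, where all 5-ASA arrays lay, so row and treatment cannot be told apart in these counts.

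Other immune lists differed in how many genes were wider in Control, and few genes had a small p. The SD was larger in Control in 15 of 18 monocyte and macrophage genes, with 2 at p under 0.05, against 49% of all genes. It was larger in 11 of 16 T cell and cytotoxic and 5 of 8 plasma cell genes, with none at p under 0.05. For mast cell genes it was 5 of 9 and for type I interferon genes 10 of 20, again with none. For B cell markers the SD was larger in Control in 15 of 16, with a median of 1.67 against 0.47 in 5-ASA, and 1 (Blk, near background in both groups) had p under 0.05. Sham, at 1.94, was wider still. For the NADPH oxidase it was larger in Control in 6 of 6, at 0.86 against 0.28 in 5-ASA and 0.92 in Sham. There 1 had p under 0.05, and without Control 4 and 6 it was larger in Control in 4 of 6. For interferon gamma and antigen presentation genes it was 17 of 17, at 0.89 against 0.56, with none at p under 0.05. Clec10a, a lectin of macrophages and dendritic cells that binds galactose, had among the smallest p for spread of genes with a symbol. Its Control mice fell into 2 sets, Control 2, 3 and 4 at 0.01 to 0.25 and Control 1, 5 and 6 at -0.95 to -0.80, while the 5-ASA mice were at -0.79 to -0.31. The SD was 0.56 and 0.18, with a spread difference of -0.40 ± 0.07 (adjusted p = 0.119). That split did not follow Control 4 and 6, and without them the difference was -0.49.

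Erythroid genes had the larger SD in Control in 6 of 6, with a median of 1.31 against 0.64 in 5-ASA and 0.55 in Sham, and 2 had p under 0.05. For Hba-a1 the SD was 1.33 and 0.53, with a spread difference of -0.71 ± 0.24 (adjusted p = 0.276). That difference was -0.19 without Control 1, and 0 genes of the list had p under 0.05 without Control 1 or Control 5. The high mice were Control 1 and Control 5. This pair differs from Control 4 and Control 6, which were lowest in smooth muscle genes and highest in neutrophil genes by list score.

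**Figure D5:**
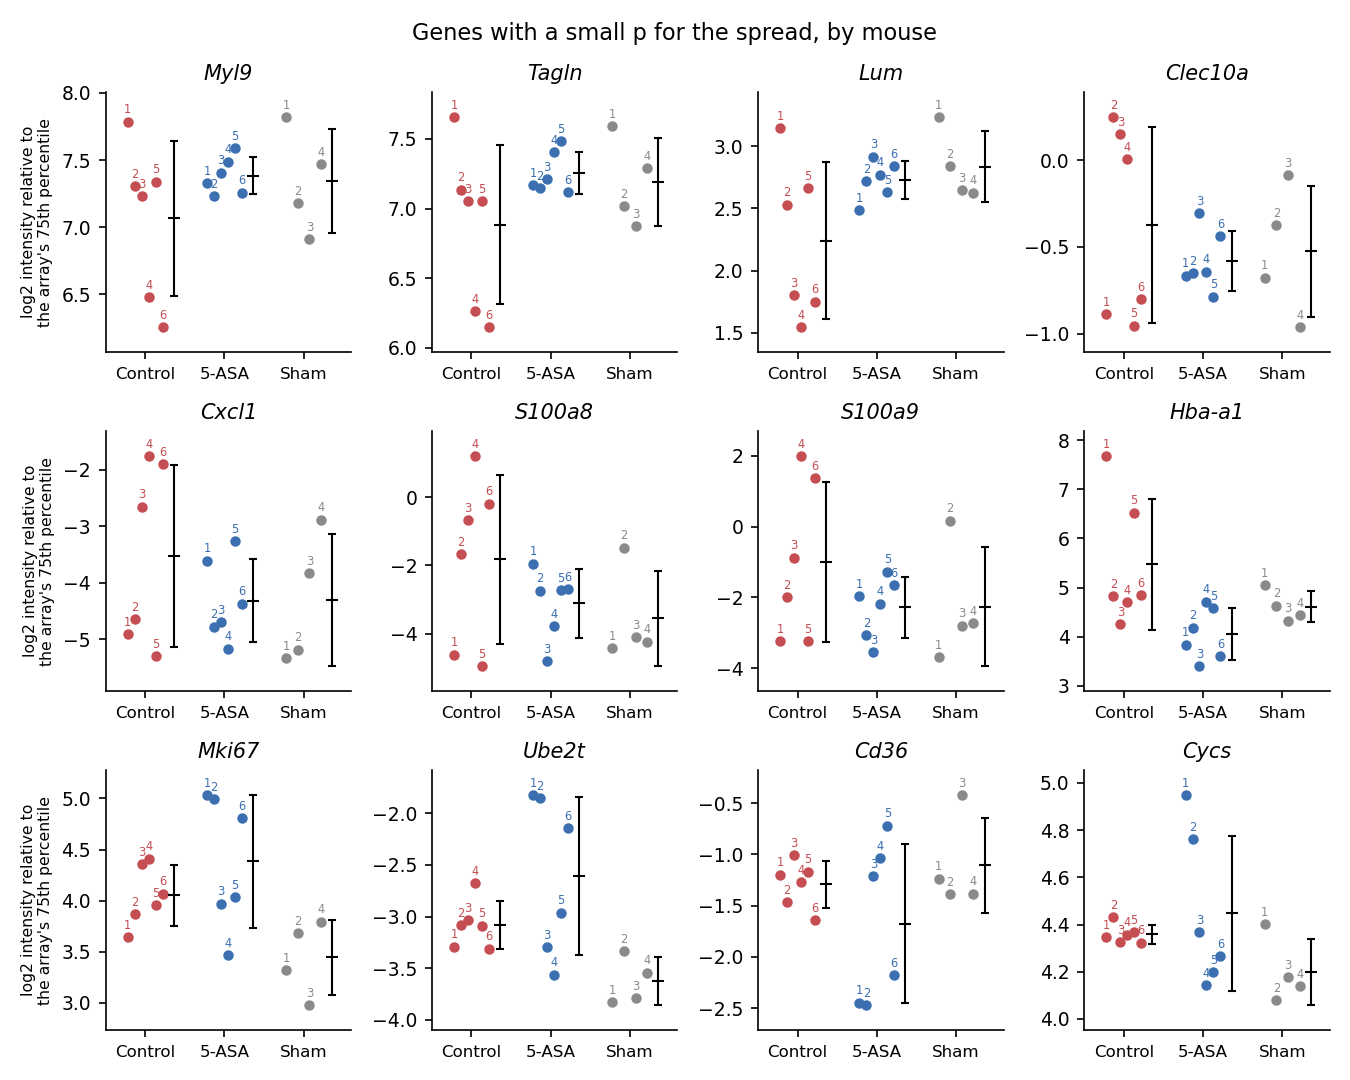
Log2 intensity relative to the array's 75th percentile (vertical axis) in each mouse for 12 genes with a small unadjusted p in the spread, with replicate numbers and the mean and SD as a black bar. The upper 8 genes have the larger SD in Control, with 0.58 and 0.14 for Myl9, and the lower 4 in 5-ASA, with 0.04 and 0.33 for Cycs.

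The reverse held for cell division. In 27 of 28 proliferation genes the SD was larger in 5-ASA, with a median of 0.69 against 0.40 in Control and 0.33 in Sham, and 9 had p under 0.05 against 5.97% of all genes. Mki67, the marker of cycling cells, ranged from 3.47 to 5.03 (median 4.42) in 5-ASA and from 3.64 to 4.41 (median 4.01) in Control. 5-ASA 1, 2 and 6, at 5.03, 4.99 and 4.81, were above every Control mouse, and 5-ASA 4, at 3.47, was below every one. Its SD was 0.65 and 0.29, with a spread difference of 0.36 ± 0.11 (adjusted p = 0.248). Kif11, a motor of the mitotic spindle, had the same order, with 5-ASA 1, 2 and 6 at 0.00, -0.02 and -0.11 and 5-ASA 4 at -1.70, against -1.52 to -0.62 in Control (adjusted p = 0.249). Of the 5 genes chosen for their small p over all genes, the same mice led in the 3 given here. In Pacs1, another of the 5, the high mice were 5-ASA 4 and 5, and Rtn4rl1 is not described here. Ube2t, a ubiquitin-conjugating enzyme of DNA crosslink repair, had 5-ASA values of -3.56 to -1.83 (median -2.55) and Control values of -3.31 to -2.68 (median -3.09). Cenpl, a centromere protein, was at -0.24 to 1.05 and -0.30 to 0.16, and Tbc1d31, a centrosomal protein, at -0.35 to 0.70 and -0.38 to -0.20. Their spread differences were 0.56 ± 0.11, 0.43 ± 0.08 and 0.36 ± 0.07, each with an adjusted p of 0.119.

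In the mean, the proliferation genes were higher in 5-ASA for 21 of 28 with a median of 0.23, none at p under 0.05. The median was 0.55 on slide 1 and -0.13 on slide 2, and 0.08 with the array row as a covariate, so its direction depended on the slide. The larger SD in 5-ASA was found in 25 of 28 genes on each slide by itself. Without 5-ASA 4 it was found in 27 of 28, and the median ratio of Control to 5-ASA SD was 0.73 in place of 0.58. The 9 genes with p under 0.05 became 5 without 5-ASA 1, 5-ASA 2 or Control 2 and 14 without 5-ASA 6.

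Genes of the circadian clock had the larger SD in 5-ASA in 14 of 16, with a median SD of 0.54 against 0.42, and 3 had p under 0.05, or 1 without Control 1 or Control 5 and 5 without 5-ASA 3 or 5-ASA 6. Per2, a repressor of the clock, ranged from -1.82 to -0.36 (median -1.02) in 5-ASA and from -0.79 to 0.15 (median -0.41) in Control. 5-ASA 1, 2 and 6, at -1.77, -1.82 and -1.36, were below every Control mouse, and the other 3 overlapped them. The spread difference was 0.40 ± 0.14 (adjusted p = 0.302) and the mean difference -0.71 ± 0.27. In the mean, 12 of 16 clock genes were lower with a median of -0.19, at -0.58 on slide 1 and 0.08 on slide 2. The hour at which each mouse was killed is not given in the sources used here.

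The PPAR target list was even in spread, with the larger SD in Control in 10 of 20 genes and in 5-ASA in the other 10, and 1 wider in 5-ASA at p under 0.05. That 1 was Cd36, a fatty acid carrier, which was at -2.47, -2.45 and -2.17 in 5-ASA 2, 1 and 6 and at -1.21 to -0.72 in the other 3, against -1.64 to -1.01 in Control. Its SD was 0.78 and 0.23, with a spread difference of 0.56 ± 0.11 (adjusted p = 0.132). Cycs, cytochrome c of the respiratory chain, was almost constant in Control at 4.32 to 4.43, while 5-ASA ran from 4.14 to 4.95 with 5-ASA 1 and 2 highest. The SD was 0.33 and 0.04, with a spread difference of 0.27 ± 0.06 (adjusted p = 0.185). In oxidative phosphorylation as a whole the SD was larger in 5-ASA in 16 of 19 genes, at a median of 0.14 against 0.09, with 4 at p under 0.05. That count was 1 without 5-ASA 2, 2 without 5-ASA 1 or Control 1, 7 without Control 6 and 8 without 5-ASA 4. With quantile scaling the SD was larger in 5-ASA in 11 of 19, with 1 at p under 0.05. Whether this list differed from other genes of like signal level was not tested. Abcg2, an efflux pump of surface colonocytes, was at 4.66 and 4.72 in 5-ASA 1 and 2, above all Control mice at 4.09 to 4.45, and at 3.67 to 3.93 in the other 4, below all of them (adjusted p = 0.249). Car4, a carbonic anhydrase of the colonocyte surface, had an SD of 0.35 and 0.12 (adjusted p = 0.185), and its high mice were 5-ASA 2, 4 and 1. Eng, a TGF beta coreceptor of endothelium, had an SD of 0.22 and 0.05 (adjusted p = 0.306) and was lowest in 5-ASA 1 and 2.

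Across these genes 5-ASA 1 and 2 stood together. They had the 2 highest proliferation scores, at 1.11 and 0.86, and the 2 lowest clock scores, at -0.67 and -0.60, while 5-ASA 4 had the lowest proliferation score, at -0.72, and the highest clock score, at 0.27, of the 12 mice given DSS. Sham 3 lay beyond it in both, at -1.04 and 0.50. Control mice kept to -0.27 to 0.57 for proliferation and -0.19 to 0.24 for the clock. 5-ASA 1 and 2 lay on slide 1 and 5-ASA 4 and 6 on slide 2, and the part of the slide in this order was not tested.

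A diarrhea score at day 28 is given for the same mice. The score was 0.33 ± 0.26 (SD, n = 6) in 5-ASA, with values of 0 to 0.5, and 0.83 ± 0.41 (n = 6) in Control, with values of 0.5 to 1.5. The groups shared the value 0.5, and the difference of -0.5 was not past 0.05 in an exact two-sided permutation test (p = 0.0758). The same exact test gave p = 0.0325 without Control 1, Control 2 or Control 5, each at 0.5, p = 0.152 without Control 3, p = 0.121 without 5-ASA 1 or 5-ASA 5, and p = 0.0758 without each other mouse. Control 3, at 1.5, and Control 4 and 6, at 1, had the highest scores of the 12 mice. These were the 3 Control mice highest in Cxcl1 and lowest in Lum.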

How the data were processed

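Colon RNA of 16 mice (4 Sham, 6 Control, 6 5-ASA) was read on 1-colour Agilent arrays. Per the file headers, the deposited intensity values were extracted with Agilent Feature Extraction 10.10.1.1, background-subtracted and detrended within each array. The authors' deposited value table holds log2 values whose making is not given in the sources used here. Its column medians were -0.188 to 0.224, its columns correlated with the scanner values at 0.997 or more, and it served as an alternative. From the values it was taken to be relative to the Sham median of each probe, a centring no source states.

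Here the log2 processed signal minus each array's 75th percentile was used, without control spots and without the outer 12 of 384 spot rows at each end. Kept probes passed the scanner's background flag in 4 or more of the 16 arrays, and a gene was read from its probe with the highest mean. Gene names came from the RefSeq table of GRCm38.p6 for 27656 probes by accession, and 28025 kept the file's name. Coordinates are those of the files, in mm9, and exon or UTR annotation was not analysed here.

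Differences in mean came from limma 3.58.1 (R 4.3.3) over all 3 groups with Benjamini-Hochberg adjustment, and spread with the same model on absolute deviations from the group mean, corrected for group size. Both fits were tested on simulated data, where the spread fit gave an unadjusted p under 0.05 to more unchanged genes than the nominal share. Single values per mouse were compared by exact permutation. The labels number the animals as biological replicates. Same-numbered mice were not treated as pairs. Their deviations correlated at 0.0346 to 0.266, which cannot show whether the mice were matched.

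The groups and the 40 gene lists were chosen with earlier results of these data known. Genes named were those with the smallest p in the mean (10 higher, 10 lower) or the spread (10 wider in Control, 5 in 5-ASA), the 2 smallest in the mean and 1 in the spread of each list, and 12 fixed genes, and some were left out. Col1a1, Gap43 and the 3 intergenic intervals were chosen after their values were seen. The number of arrays limits the precision. Results for some genes are not reported here.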

Additional observations from a re-analysis of the deposited data

Results flagged for a closer look

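In the groups of 6, 210 sets of values (genes named and list scores) were examined for a mouse far from the others, and 6 (2.86%) had a gap to the nearest mouse of more than 0.625 of the group's range. Chance gives about 1 in 20.

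Control 4 was the low mouse for markers of secretory epithelium. Its goblet cell score was -0.23, with the nearest Control mouse at 0.03 and the highest at 0.17 (gap 0.643 of the range). Its tuft cell score was -0.74 against -0.12 to 0.17 in the others (0.684). Control 6 was the high Control mouse for type I interferon genes, at 0.57 against -0.33 to -0.02 (0.659), and Sham 1, at 0.97, was higher still.

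Among the 5-ASA mice, 5-ASA 4 stood apart for the platelet receptor Treml1, at -3.92 against -4.56 to -4.48 (0.885). It was also lowest for epithelial defence and acute phase genes, scoring -1.17 against 0.23 to 1.0 in the other 5 (0.643). 5-ASA 6 was lowest for P2ry2, at 0.55 against 0.86 to 1.04 (0.626).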

How the results depend on the processing

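No gene passed in the mean without any 1 mouse, under any scaling, or in the 12 arrays alone, while 3065 passed without the filter on dim probes and 1 with the array row as a covariate. Genes higher in 5-ASA at an unadjusted p under 0.05 (321) were 755 with normexp background, 5195 without the filter, 483 with the array row as a covariate, 844 in the second array row alone, 793 on slide 2 and 164 to 693 without 1 mouse. Genes lower (627) were 417 with normexp and 394 to 798 without 1 mouse. Genes past the adjusted threshold in the spread (3) were 1 with normexp, with the slide as a block, with squared deviations or with 12 arrays. They were 8 with quantile scaling or the mean of a gene's probes, 6 with median scaling, 14 with outer spot rows kept and 11 with the array row as a covariate. They were 0 on either slide or when all 16 arrays had to be well above background, 4347 without the filter and 2 to 24 without 1 mouse. Genes wider in Control (1537) were 6884 without the filter, 934 on slide 1, 591 without Control 4 and 6, 664 with median deviations and 628 to 2186 without 1 mouse. Genes wider in 5-ASA (1395) were 802 with median deviations and 1009 to 1847 without 1 mouse. With the replicate number as a block, 85 genes were wider in Control, 107 in 5-ASA and 0 past the adjusted threshold, and the spread differences of Cxcl1 (0.30), Blk (0.21) and Kif11 (-0.0325) reversed. That setting makes the signed deviations of same-numbered mice sum to 0, which draws the spreads of the groups together. It therefore cannot compare them, and nothing is concluded from these counts or reversals. Whether the numbers pair the mice cannot be told from the array values, and only replicate 6 correlated best with its own number. The difference in distance between mice (-0.00468) was -0.0875 without the filter, 0.00888 with the array row regressed out and -0.0228 to 0.0202 without 1 mouse, and that in diarrhea score -0.567 to -0.367. Other reversals were small. Apc was 0.00593 with normexp, 0.0478 with the array row as a covariate or in the second row alone, 0.0554 on slide 2 and -0.0818 to 0.0106 without 1 mouse, above 0 without Control 1 or Control 2. Ptgs2 was 0.17 with the array row and in the second row alone, and -0.326 to 0.0760 without 1 mouse, above 0 without Control 1 or 5-ASA 4. On slide 1 smooth muscle was -0.14, neuron and glia -0.25, Tagln -0.11, Nat2 0.0756 and Il1b 0.25, and on slide 2 proliferation was -0.13 and the clock 0.0776. Without Control 4 and 6 smooth muscle was -0.0319, neuron and glia -0.14, cytokines 0.0598, S100a9 0.0565 and Il1b 0.44. The cause was not tested. The spread in the second array row alone was not run, since 2 Control arrays have equal deviations, and slides were fitted for spread without Sham.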

Other observations

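Most lists not described above held few genes with a small p in the mean. The unfolded protein and heat shock list held the most, and in both directions. Of its 15 genes 1 was higher and 2 were lower in 5-ASA at p under 0.05, against 1.37% and 2.68% of all genes. In all, 8 of the 15 were higher, with a median of 0.14. Of 9 tuft cell genes 5 were higher in 5-ASA, and Il25, the tuft cell cytokine that drives type 2 immunity, was the 1 with p under 0.05. It ranged from -7.66 to -4.21 (median -5.19) in Control and from -4.94 to -3.68 (median -4.21) in 5-ASA, a difference of 1.21 ± 0.44 (SE; limma adjusted p = 0.999, as for the other mean differences here). Control 4 was the mouse at -7.66, and the probe was well above background on 3 Control and 4 5-ASA arrays. Bcl3, a nuclear partner of NF-kB, was at 3.97 to 4.70 in Control and 3.29 to 4.26 in 5-ASA, with -0.43 ± 0.18, and 10 of 13 NF-kB feedback genes were lower. Of 16 epithelial defence and acute phase genes 6 were higher and 10 lower, with none at p under 0.05. Duoxa2, the maturation factor of the epithelial oxidase DUOX2, differed by -0.64 ± 0.31 and the serum amyloid gene Saa3 by -0.67 ± 0.63, both with an unadjusted p above 0.05. Of 20 ribosomal protein genes 19 were higher, with a median of 0.06 and none at p under 0.05. Type I interferon genes were even, with 9 of 20 higher. In the clock list Ciart, a repressor of the clock, differed by -1.45 ± 0.64 and was well above background on 6 Control but 2 5-ASA arrays.

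Of 13 endothelial genes 8 had the larger SD in 5-ASA, against 51% of all genes. Of the 13, 4 were wider in 5-ASA at p under 0.05 (Eng, Emcn, Tie1 and Pecam1), against 5.97% of all genes. The list score was lowest in 5-ASA 1 and 2, at -0.36 and -0.20. In the unfolded protein and heat shock list the SD was larger in Control in 7 of 15 genes. Hspb1, a small heat shock protein, was at 3.98 to 6.28 in Control and 5.27 to 5.69 in 5-ASA (adjusted p = 0.348), with Control 6 and 4 lowest and Control 1 highest. Pacs1, a sorting protein of the trans-Golgi network, was at -2.02 to -1.77 in Control, while 5-ASA 4 and 5 were at -0.91 and -1.03 and the other 4 at -2.48 to -2.06 (adjusted p = 0.119). Kcnrg, a regulator of potassium channels, divided the Control mice: Control 1, 3 and 4 were at -3.42 to -3.40 and Control 2, 5 and 6 at -2.88 to -2.79, with the 5-ASA mice between, at -3.14 to -2.94 (adjusted p = 0.093). Dnajc28 had an SD of 0.81 in Control and 0.21 in 5-ASA (adjusted p = 0.0762).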
